A study of Rattus norvegicus with 16 samples.

Results

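Heat shock proteins and DnaJ chaperones are described here across rat livers that differed in adrenal surgery and in inhaled gas. Members are the genes whose symbol begins with Hsp and a family letter or 90, or with Dnaj, a class letter and a digit. Hspa5 and Dnajb9 were left out, and a member needed a mean of at least 14.7 normalized counts over all libraries. Of 69 matching symbols 55 reached that mean, among 22587 gene symbols in the table. They comprised 3 Hsp90, 5 Hsp70 and 3 Hsp110 proteins, the chaperonin Hspd1, and 4 with the symbol of a small heat shock protein (Hspb1, Hspb6, Hspb8 and Hspb11). The DnaJ proteins were 4 of class A, 8 of class B and 25 of class C. The remaining 2 members, Hspbp1 and Hspbap1, bind heat shock proteins and are not chaperones of these families.

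The livers came from male Wistar-Wyoto rats aged 13 weeks. ADREX rats had undergone total bilateral adrenalectomy, which removes the source of corticosterone and of adrenal adrenaline, and SHAM rats a sham operation. Each kind then spent 4 h in ozone at 0.8 ppm or in air, giving 4 libraries each of ADREX ozone (81 to 84), ADREX air (65 to 68), SHAM ozone (17 to 20) and SHAM air (1 to 4). Values per library are given below in that order of numbers. Groups follow the titles of the libraries. The treatment label gives ozone for all 8 ADREX libraries, so every comparison with ADREX air rests on its titles. The labels do not state that each library is 1 animal, so p-values measure the spread between these libraries.

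Chaperones bind unfolded or partly folded proteins and keep them from aggregating. Hsp70 proteins do so in cycles driven by ATP, in which DnaJ proteins (also called Hsp40 or J proteins) deliver the substrate and trigger ATP hydrolysis, and Hsp110 proteins release the nucleotide. Hsp90 acts later in folding and holds the glucocorticoid receptor in the state that binds hormone. The transcription factor Hsf1 raises a subset of these genes under heat or other protein stress by binding heat shock elements, repeats of the unit nGAAn in alternating orientation.

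The libraries held 8372891 to 14096246 reads, and members drew 0.306% to 0.545% of them. The liver label matched the data: 10 hepatocyte markers together reached 116192 to 227559 RPM (reads scaled to a library total of 1000000) in every library. Transcripts of neurons and oligodendrocytes were also present, and 22 of their markers together ranged over 726 to 4422 RPM in ADREX ozone, 226 to 1112 RPM in ADREX air, 51.7 to 2768 RPM in SHAM ozone and 23.5 to 770 RPM in SHAM air libraries. Sums of other marker lists differed without overlap in 5 of 48 exact permutation tests, each at two-sided p = 0.0286, the smallest that 4 against 4 allows (0.274 adjusted over the 48). For ADREX under ozone, 7 lymphocyte markers reached 23.9 to 35.9 RPM in ADREX ozone and 11 to 16 RPM in SHAM ozone libraries. For ADREX in air, 5 cholangiocyte markers reached 15.3 to 21.9 RPM in ADREX air and 5.14 to 9.49 RPM in SHAM air libraries. In SHAM livers, cholangiocyte markers were higher and sinusoidal endothelium and muscle markers lower with ozone. The muscle sums were only 0.239 to 0.420 RPM in SHAM air and 0.0917 to 0.142 RPM in SHAM ozone libraries. Of the muscle markers, Ckm and Myl1 were at 0 in both groups and Myh7 in SHAM ozone. A count of 0 allows up to 0.213 to 0.358 RPM, depending on the library. The muscle difference therefore lies near the limit of counting, and no change in muscle transcripts is concluded from it. The 7 Kupffer cell markers ranged over 479.5 to 1031 RPM in ADREX air and 390 to 532 RPM in SHAM air libraries. No lymphocyte, cholangiocyte or Kupffer cell marker was at 0 in all 4 libraries of a group. The part of these cells in the results was not tested. The members with the highest mean normalized counts were Hsp90ab1, Hsp90b1, Hsp90aa1, Hspd1 and Hspa9. RefSeq's GRCr8 annotation names 86 pseudogenes of 14 members, among them 23 of Hsp90ab1, 20 of Hspd1 and 16 of Hsp90aa1. How the table counted reads shared with such copies is not given in the sources used here, so the levels of these members are uncertain. Across whole tissue, fewer cells of a type and less RNA per cell cannot be told apart.

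Few members passed the test in any comparison. In ADREX against SHAM livers under ozone, Hsp90ab1, Dnajc15 and Dnajc12 rose and Hspd1 fell. These are 4 of 55 members (7.27%), against a background of 12.5% of the 12788 genes tested (limma, adjusted p under 0.05). In air, Hspb6 was the only member called, and it fell (1.82% of members, background 3.53%). For ozone in SHAM livers the count was 0 (background 1.58%), with 9 members (16.4%) at an unadjusted p under 0.05 against 18.4% of all genes. Ozone in ADREX livers also gave 0 (background 0.125%), with 14 members (25.5%) at an unadjusted p under 0.05 against 17.8%. On the recovered reads, edgeR called 3 members in ADREX against SHAM under ozone (background 12.4%), Hspd1, Hspa9 and Dnajb4, all lower. It called Hspb6 (lower) for ADREX in air (background 2.96%), Hspa1a (lower) for ozone within ADREX (0.383%) and Dnajb4 (higher) for ozone within SHAM (1.38%). With edgeR the adjusted p under ozone was 0.0519 for Hsp90ab1, 0.064 for Dnajc15 and 0.0765 for Dnajc12. DESeq2 called 8 members for ADREX under ozone (background 17.2%), 4 in air (6.52%), 6 for ozone within ADREX (4.46%) and 3 within SHAM (4.22%). For ADREX in air, 17 members (30.9%) had an unadjusted p under 0.05 against 20.2% of all genes, and under ozone 20 (36.4%) did against 31.2%.

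The median log2 change of the members was −0.07 for ADREX against SHAM under ozone, against 0.11 for all genes tested. For ADREX against SHAM in air it was 0.12 against 0.04. For ozone against air it was −0.01 against 0.06 in ADREX livers and 0.09 against 0.01 in SHAM livers. For the difference between the ozone effects in ADREX and in SHAM livers it was −0.182 against 0.066. The SD of the members' median log2 level between libraries was 0.113.

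**Figure D1:**
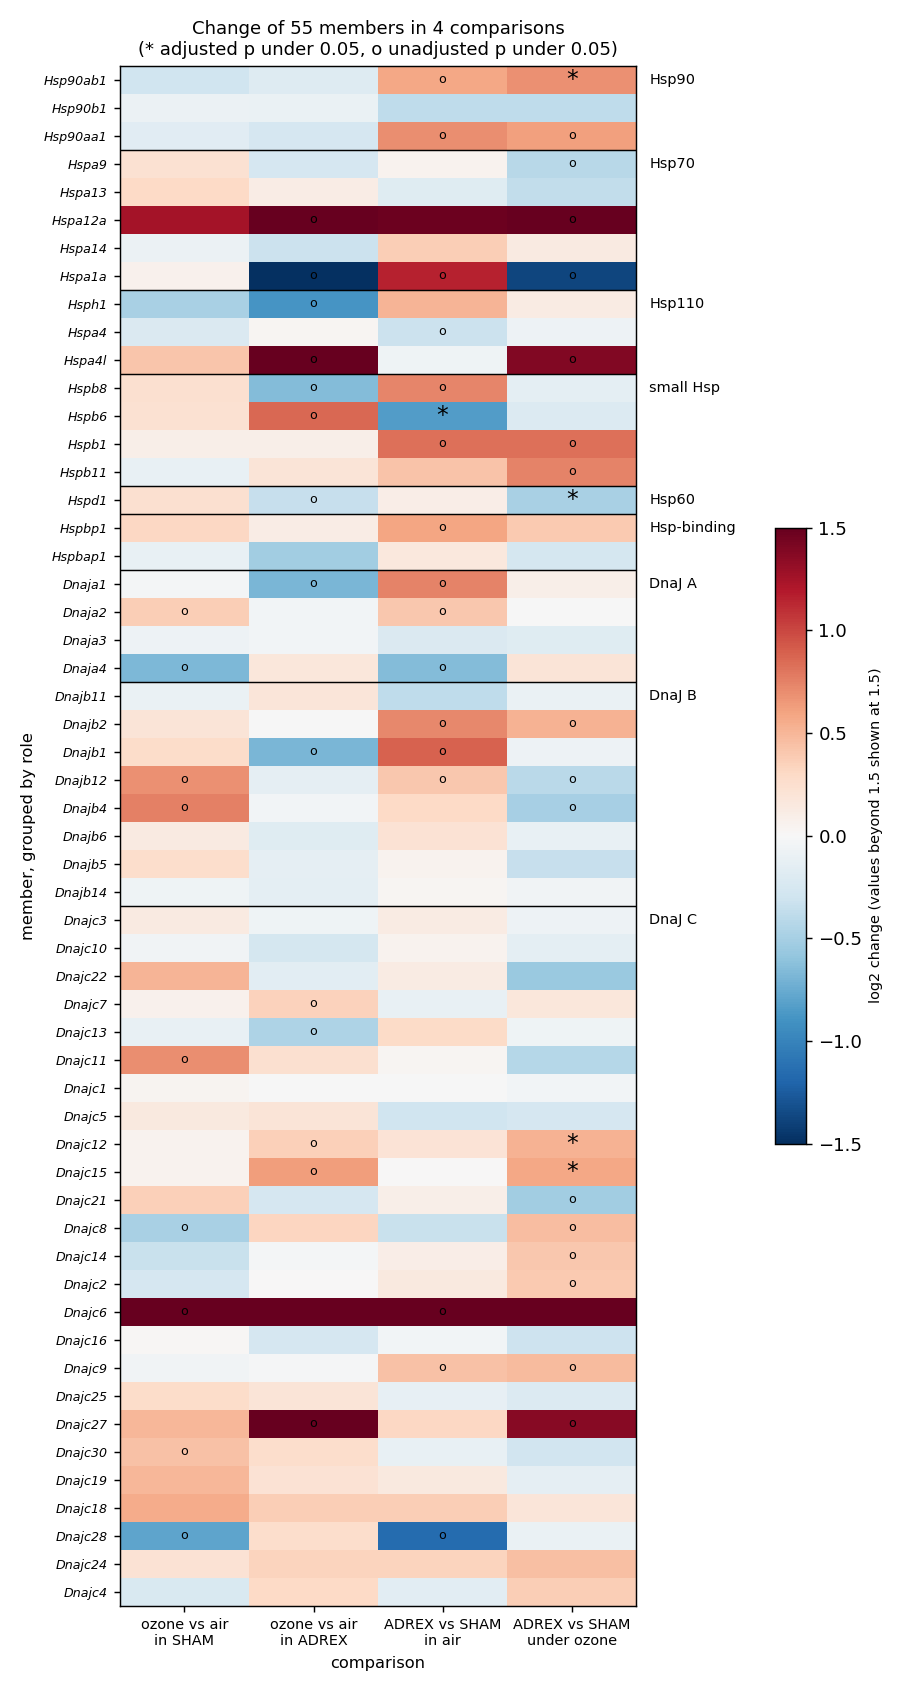
Fitted log2 change of each of the 55 members (down the page, ordered by role) in 4 comparisons (across), ADREX over SHAM or ozone over air. Colour runs from lower to higher in the ADREX or ozone group, a circle marks an unadjusted p under 0.05 and a star the members that passed limma's adjusted p of 0.05: 4 for ADREX under ozone and 1 for ADREX in air.

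The promoters of 5 members are shown because they carry matches to the heat shock element; of them Hspd1 and Hspb6 passed in 1 comparison each, and Hsph1, Dnaja1 and Dnajb1 in none with limma. They are 300 bases from RefSeq's GRCr8 annotation, 250 before the start of the gene and 50 after it, 5′ to 3′ on the gene's strand, with matches of at least 2 units (GAANNTTC or TTCNNGAA, N any base) in capitals.
Hsph1 (chr12:10427118-10427417, plus strand): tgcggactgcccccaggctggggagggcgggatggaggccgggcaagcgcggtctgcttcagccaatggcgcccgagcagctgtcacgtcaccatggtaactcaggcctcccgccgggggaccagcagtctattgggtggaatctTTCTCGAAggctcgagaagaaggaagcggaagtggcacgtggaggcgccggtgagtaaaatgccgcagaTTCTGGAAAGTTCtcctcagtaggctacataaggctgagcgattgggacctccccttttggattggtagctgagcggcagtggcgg
Dnaja1 (chr5:60638154-60638453, plus strand): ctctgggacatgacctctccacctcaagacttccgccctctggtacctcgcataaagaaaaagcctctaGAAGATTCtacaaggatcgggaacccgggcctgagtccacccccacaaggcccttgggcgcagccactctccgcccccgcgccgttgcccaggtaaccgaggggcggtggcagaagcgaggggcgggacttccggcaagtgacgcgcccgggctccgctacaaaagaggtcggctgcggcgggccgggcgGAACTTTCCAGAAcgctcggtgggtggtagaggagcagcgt
Dnajb1 (chr19:41431092-41431391, minus strand): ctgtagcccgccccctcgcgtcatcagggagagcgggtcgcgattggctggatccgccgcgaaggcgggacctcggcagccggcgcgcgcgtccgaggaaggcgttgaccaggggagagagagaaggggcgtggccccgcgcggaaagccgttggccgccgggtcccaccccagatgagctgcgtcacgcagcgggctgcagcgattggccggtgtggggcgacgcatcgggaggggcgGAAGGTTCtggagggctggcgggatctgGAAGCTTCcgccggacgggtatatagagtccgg
Hspd1 (chr9:64083988-64084287, minus strand): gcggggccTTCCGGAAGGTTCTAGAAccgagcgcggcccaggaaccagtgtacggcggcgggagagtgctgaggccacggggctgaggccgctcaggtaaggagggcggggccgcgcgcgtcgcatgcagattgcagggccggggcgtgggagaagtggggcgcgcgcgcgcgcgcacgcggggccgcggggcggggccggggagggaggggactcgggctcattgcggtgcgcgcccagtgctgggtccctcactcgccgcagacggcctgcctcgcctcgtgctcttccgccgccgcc
Hspb6 (chr1:94934122-94934421, plus strand): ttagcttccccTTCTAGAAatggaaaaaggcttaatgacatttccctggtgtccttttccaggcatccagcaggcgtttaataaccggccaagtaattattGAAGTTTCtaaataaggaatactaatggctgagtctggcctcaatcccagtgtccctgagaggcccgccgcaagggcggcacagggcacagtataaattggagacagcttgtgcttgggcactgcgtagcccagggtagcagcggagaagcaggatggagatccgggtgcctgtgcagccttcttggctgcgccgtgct
Both patterns read the same on either strand, and a match of 3 units (GAA, TTC and GAA, or TTC, GAA and TTC, with 2 bases between units) contains 2 overlapping matches of 2 units. Of the 55 members, 43 were found in the promoter set by symbol. A match of 2 units occurred in 12 of these 43 (27.9%) and in 4233 of 27457 promoters (15.4%). A match of 3 units occurred in 3 of them (6.98%), Hsph1, Dnaja1 and Hspd1, and in 202 of all promoters (0.736%). These windows of Hspa1a and Hsp90ab1 held no match. The glucocorticoid element (GNACA and TGTNC with 3 bases between them, searched on both strands) was in 0 of the 43 members' windows and in 0.422% of all. A match describes letters only, and these data did not measure binding.

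Hsph1, Dnaja1 and Dnajb1, cytosolic stress-inducible chaperones, stood highest in 3 of the 4 ADREX air livers, although none of them passed for ADREX against SHAM in air. Hsph1, which encodes an Hsp110 nucleotide exchange factor, had 1494, 1579.6, 1229 and 1010.3 normalized counts in ADREX ozone, 3402, 3376, 1023 and 2887 in ADREX air, 1033, 1298, 1466 and 1063 in SHAM ozone and 1629.5, 1616, 1795 and 1732 in SHAM air livers. ADREX air 65, 66 and 68 lay above all other 13 libraries, while ADREX air 67 lay below every SHAM air library. Dnaja1, a cytosolic J protein that works with Hsp70, had 3078, 5571, 4096 and 2818 in ADREX ozone, 7291, 7289.6, 3095 and 8151 in ADREX air, 3088, 4016, 4399 and 2885 in SHAM ozone and 3902, 2849, 4935 and 3082 in SHAM air livers. The same 3 libraries were again the highest and ADREX air 67 stood among the SHAM values. Dnajb1, the classic Hsp40, had 606, 693, 621 and 322 in ADREX ozone, 809, 915, 536 and 1408 in ADREX air, 563, 645, 597 and 476 in SHAM ozone and 592, 376, 706 and 309 in SHAM air livers. Its groups overlapped, and ADREX air 67 was again the lowest of its group.

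Hspa1a, the inducible Hsp70 that is scarce in unstressed tissue, ranged widely. It had 14.9, 6.28, 7.68 and 8.64 normalized counts in ADREX ozone and 53, 98.5, 14.9 and 104 in ADREX air livers. The groups met without overlap at 14.9, the highest ADREX ozone and the lowest ADREX air value. In SHAM ozone livers it had 48.3, 15.9, 17.4 and 28 and in SHAM air livers 32.7, 18, 18.8 and 28.1. Every SHAM library lay above every ADREX ozone library, and ADREX against SHAM under ozone did not pass (log2 change −1.38 ± 0.53, adjusted p = 0.0947). The ADREX values rest on few reads, 13, 6, 7 and 6 in the ADREX ozone and 45, 93, 10 and 85 in the ADREX air libraries. Hspa1b, a near-identical copy, lay under the mean needed (12 reads in ADREX air 65, 5 in ADREX ozone 81, 5 in SHAM ozone 18 and none elsewhere), and reads of the pair could have been divided between them.

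**Figure D2:**
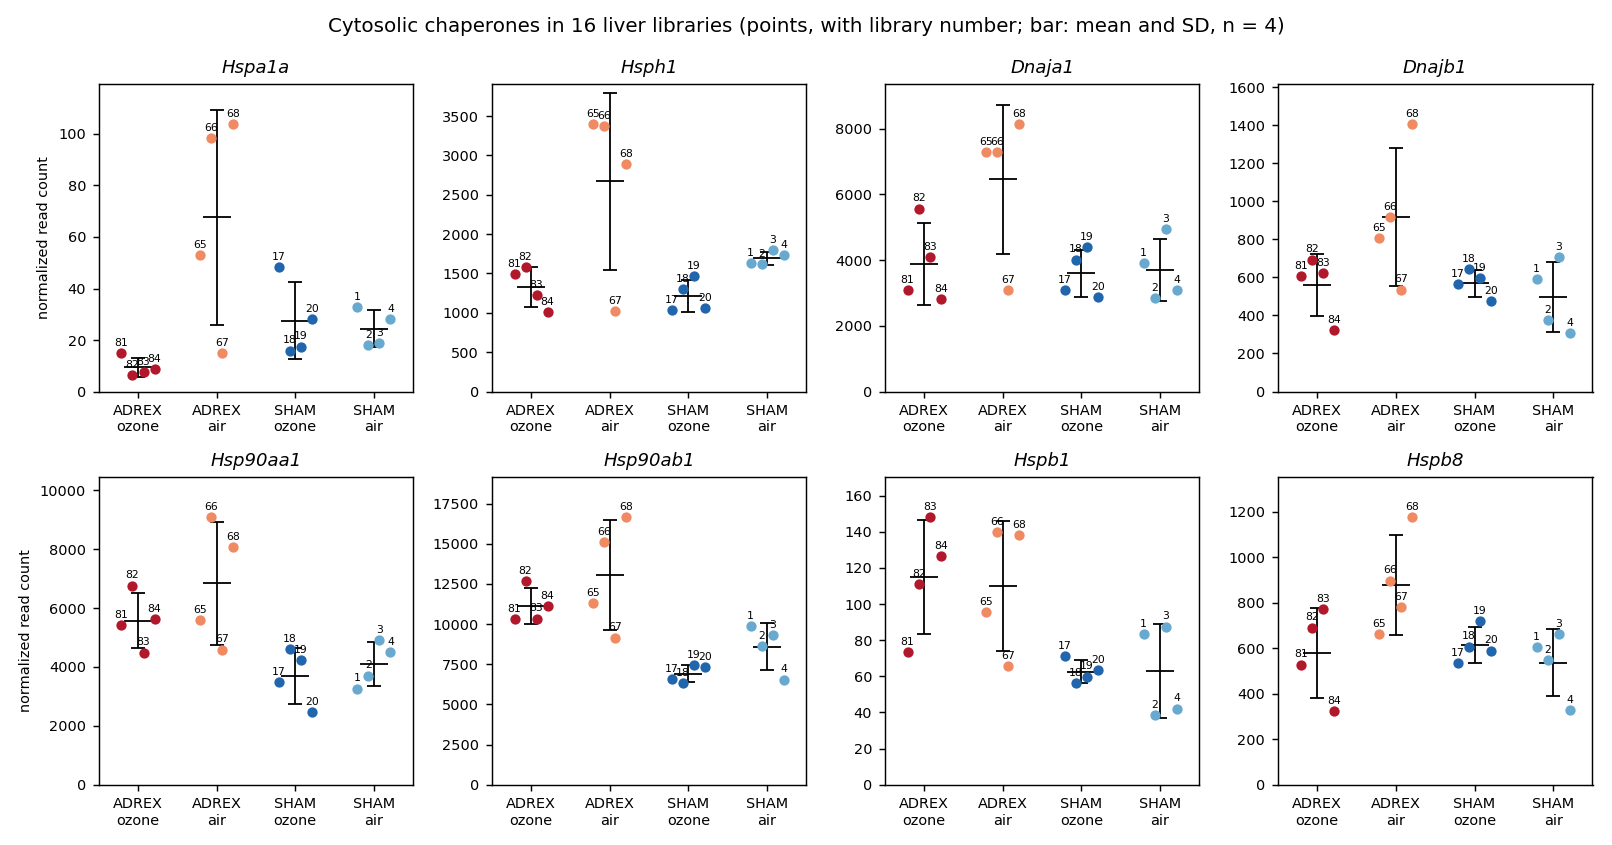
Normalized counts of Hspa1a, Hsph1, Dnaja1, Dnajb1, Hsp90aa1, Hsp90ab1, Hspb1 and Hspb8 in every library, with 1 panel a gene and 4 libraries a group; horizontal bars are group means with SD. In Hsph1 and Dnaja1 the libraries ADREX air 65, 66 and 68 stand above all others and ADREX air 67 does not.

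For ozone in ADREX livers, Hspa1a averaged 9.37 ± 3.79 under ozone and 67.6 ± 41.9 in air (log2 change −2.46 ± 0.53, adjusted p = 0.0768, limma, SE). The log2(value + 1) scale understates the change of so low a gene. It passed with edgeR (log2 change −2.92, adjusted p = 0.0405) and with DESeq2 (adjusted p = 0.000253). Hsph1 averaged 1328 ± 259 under ozone and 2672 ± 1125 in air (log2 change −0.88 ± 0.29, adjusted p = 0.169). Without ADREX air 67 both genes passed limma's test, Hspa1a at −3.06 (adjusted p = 0.0227) and Hsph1 at −1.30 (adjusted p = 0.017). That library was noticed from these values and held the lowest ADREX air value of both genes, so leaving it out had to enlarge the falls. Neither gene passed when any other library was left out. The fit without ADREX air 67 called 2 of 55 members (3.64%) and 0.391% of all genes.

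The comparison of ADREX with SHAM in air turned on the same library. Summed over Hspa1a, Hsph1, Dnaja1, Dnajb1, Dnajb4, Hsp90aa1 and Hspb1, normalized counts were 11154, 15293, 11076 and 10231 in ADREX ozone, 17689.8, 21351, 9723 and 21359.5 in ADREX air, 8902, 11257, 11495 and 7572 in SHAM ozone and 9896, 8886, 12894 and 10129 in SHAM air livers. All 7 had a positive log2 change for ADREX in air, median 0.75, against 0.04 for all genes. None passed with limma, and 5 were below an unadjusted p of 0.05, against 20.2% of all genes. These 7 genes were listed with earlier results of these data known, so their shared direction is a description and not a test. Of the 7, edgeR called 0 and DESeq2 called Hsp90aa1. With ADREX air 67 left out, 8 members (14.5%) passed instead of 1, against 6.44% of all genes in the same fit. Of these, Dnaja1 (1.07), Dnajb1 (1.11), Dnajb2 (0.87), Hsp90aa1 (0.88), Hsp90ab1 (0.74), Hspa1a (1.74) and Hsph1 (0.93) had a positive log2 change and Hspb6 (−0.77) a negative one. That library was noticed from these values, and its depth (10089115 reads) and neural marker sum (226 RPM) lay within the range of the others. It also lay outside the range of the other 3 ADREX air libraries for some other genes. Its Fkbp5 level was 460 normalized counts, against 267 to 295 in those 3 and 405 to 593 in SHAM air livers. The hepatocyte transcript Tf stood at 18929 RPM in it and at 10673 to 12037 RPM in those 3, and Cyp2e1 at 3594 RPM in it and at 5536 to 11356 RPM in those 3. Of the other hepatocyte markers, Alb, Apoa1, Ttr, Hnf4a and Fgb also lay outside the range of those 3. Serpina1, Cps1 and Apob lay within it. Its sum of 7 Kupffer cell markers was 479.5 RPM, against 561 to 1031 RPM in those 3. Clec4f, Cd163, Csf1r and Vsig4 were lower in it than in those 3, while Cd68, Marco and Adgre1 lay within their range. How often a library lies outside the range of the rest of its group was not counted over all genes. These values therefore do not show that ADREX air 67 was unusual as a whole. Leaving out SHAM air 3 gave 7 calls (12.7% of members, 7.85% of all genes), Dnajb1, Dnajb2, Dnajc6 and Hspbp1 higher and Dnaja4, Dnajc28 and Hspb6 lower.

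One form of Hsp90 rose in ADREX livers under ozone. Hsp90ab1, its constitutive cytosolic form, had 10327, 12679, 10336 and 11124 normalized counts in ADREX ozone and 6569, 6342, 7433 and 7346 in SHAM ozone livers, without overlap and higher in 4 of 4 ADREX libraries. It rose to 11117 ± 1107 in ADREX ozone livers, against 6922 ± 548 in SHAM ozone livers (log2 change 0.68 ± 0.19, adjusted p = 0.0273). The call ended in 4 of 16 leave-outs, where the adjusted p was 0.0712 on leaving out ADREX ozone 82, 0.058 for SHAM ozone 20, 0.0547 for SHAM ozone 18 and 0.0751 for SHAM ozone 17. In ADREX air it had 11285, 15080.2, 9157 and 16659.8 and in SHAM air livers 9879.8, 8625, 9308 and 6541 (log2 change 0.58 ± 0.19, adjusted p = 0.101), and these overlapped. Hsp90aa1, the inducible form, averaged 5575 ± 936 in ADREX ozone and 3696 ± 941 in SHAM ozone livers (log2 change 0.62 ± 0.24, adjusted p = 0.0931).

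Small heat shock proteins hold unfolded proteins without ATP. Of the 4 members grouped with them by symbol, 1 passed, Hspb6 (Hsp20, abundant in muscle). It had 106, 93.2, 82.3 and 122 normalized counts in ADREX ozone, 62.4, 43.4, 47.7 and 69.7 in ADREX air, 115, 97.9, 103 and 153 in SHAM ozone and 99.7, 96.1, 90.0 and 108 in SHAM air livers. All 4 ADREX air livers lay below the other 12. It fell to 55.8 ± 12.3 in ADREX air, against 98.5 ± 7.67 in SHAM air livers (log2 change −0.83 ± 0.20, adjusted p = 0.0317). The adjusted p was 0.116 on leaving out ADREX air 66, 0.0515 for ADREX air 65, 0.0947 for SHAM air 4, 0.0737 for SHAM air 2 and 0.0628 for SHAM air 1. Ozone against air in ADREX livers did not pass (log2 change 0.86 ± 0.20, adjusted p = 0.0959).

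Hspb1 (Hsp27) averaged 115 ± 31.6 in ADREX ozone and 62.6 ± 6.28 in SHAM ozone livers without overlap (log2 change 0.82 ± 0.31, adjusted p = 0.089). Hspb8, a partner of Bag3 in the removal of misfolded proteins, was chosen after its values were seen. It had 528, 691, 771 and 322 in ADREX ozone, 664, 898, 782 and 1178 in ADREX air, 534, 608, 722 and 589.9 in SHAM ozone and 606, 548, 664 and 327 in SHAM air livers. The lowest ADREX air and the highest SHAM air value were both 664, and the difference missed the threshold (log2 change 0.73 ± 0.27, adjusted p = 0.144). In all, 6 members (10.9%) did not overlap between ADREX air and SHAM air livers, against 9.27% of all genes.

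Of 8 mitochondrial members, 1 fell and 1 rose in ADREX livers under ozone, where limma called 12.5% of all genes tested. Hspd1, the Hsp60 chaperonin of the matrix, had 3725, 3012, 3384 and 4546 normalized counts in ADREX ozone and 4989, 4882, 4711 and 5769 in SHAM ozone livers, lower in 4 of 4 ADREX libraries. It fell to 3667 ± 654 in ADREX ozone, against 5088 ± 469 in SHAM ozone livers (log2 change −0.48 ± 0.15, adjusted p = 0.0438). In air it averaged 4629 ± 517 in ADREX and 4320.1 ± 484 in SHAM livers. Its adjusted p was between 0.0509 and 0.135 when any 1 of 11 libraries was left out (ADREX ozone 81, 82 and 83, ADREX air 65 and 66, SHAM ozone 17, 18, 19 and 20 and SHAM air 1 and 2). Hspa9 (mortalin), the Hsp70 that pulls proteins into the matrix, averaged 3789 ± 489 in ADREX ozone and 5069 ± 628 in SHAM ozone livers. The difference missed the threshold (log2 change −0.42 ± 0.15, adjusted p = 0.0683), which it passed after TMM scaling (adjusted p = 0.043), with edgeR (0.0425) and with DESeq2 (0.013).

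Dnajc15, a J protein of the inner mitochondrial membrane, rose. It had 357, 539, 459 and 406 in ADREX ozone, 295, 233, 261 and 353 in ADREX air, 257, 301, 305 and 307 in SHAM ozone and 320.0, 234, 341 and 247 in SHAM air livers. The ADREX ozone livers lay above the SHAM ozone and the ADREX air livers without overlap. It rose to 440.2 ± 78.1 in ADREX ozone, against 292 ± 23.8 in SHAM ozone livers (log2 change 0.58 ± 0.18, adjusted p = 0.0419). Its adjusted p was between 0.0509 and 0.123 when any 1 of 8 libraries was left out (ADREX ozone 82, 83 and 84, ADREX air 65 and SHAM ozone 17, 18, 19 and 20). The other mitochondrial members, Dnaja3, Dnajc11, Dnajc19, Dnajc28 and Dnajc30, passed in no comparison with limma or edgeR; DESeq2 called Dnajc11 for ozone in SHAM and Dnajc28 for ADREX in air. Dnajc28 had 40.6 ± 14.9 in ADREX air and 89.4 ± 20.6 in SHAM air livers (log2 change −1.16 ± 0.33, adjusted p = 0.0669).

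**Figure D3:**
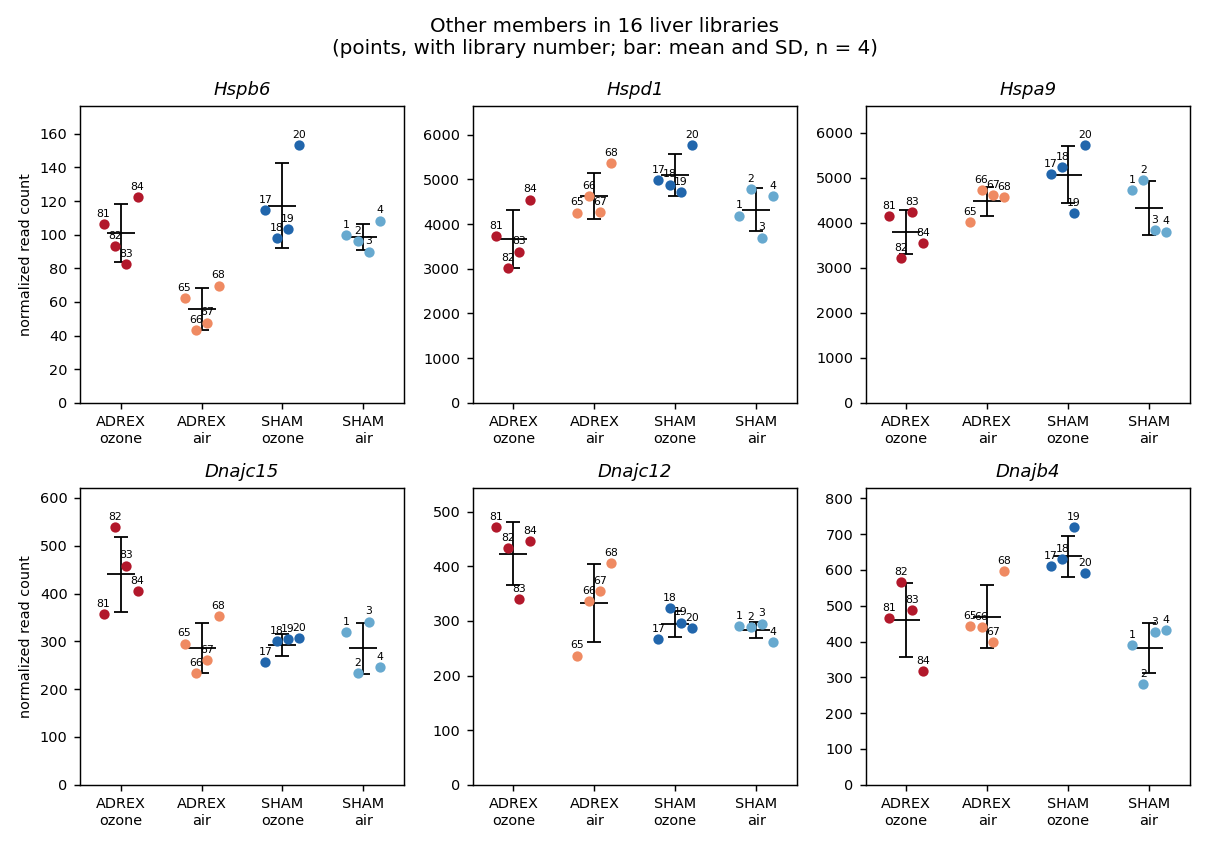
Normalized counts of Hspb6, Hspd1, Hspa9, Dnajc15, Dnajc12 and Dnajb4 in every library, with 1 panel a gene; horizontal bars are group means with SD (4 libraries a group). Hspd1 is lower, and Dnajc15 and Dnajc12 higher, in the 4 ADREX ozone than in the 4 SHAM ozone libraries, and Hspb6 is lowest in ADREX air.

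Dnajc12, a cytosolic J protein that in humans helps fold the liver enzyme phenylalanine hydroxylase, had 472, 434, 340.1 and 446 normalized counts in ADREX ozone and 267, 324, 297 and 288 in SHAM ozone livers. The groups did not overlap. It rose to 423 ± 57.6 in ADREX ozone, against 294 ± 23.6 in SHAM ozone livers (log2 change 0.52 ± 0.16, adjusted p = 0.0486). Its adjusted p was between 0.0506 and 0.131 when any 1 of 12 libraries was left out (ADREX ozone 81, 82 and 84, ADREX air 66, SHAM ozone 17, 18, 19 and 20 and SHAM air 1, 2, 3 and 4). Dnajc9, a J protein that chaperones histones in human cells, averaged 163 ± 27.4 in ADREX ozone and 116 ± 10.6 in SHAM ozone livers, again without overlap (log2 change 0.48 ± 0.16, adjusted p = 0.0647). In all, 14 members (25.5%) did not overlap between ADREX ozone and SHAM ozone livers, against 20.5% of all genes. Rescaling by TMM, which moved the median of all genes in this comparison to 0.02, gave 1 call up (background 4.37%) and 3 down (8.85%) in place of 3 up (6.03%) and 1 down (6.48%). Hsp90ab1 and Hspd1 stayed, Dnajc15 and Dnajc12 dropped out, and Hspa9 and Dnajb4 came in as lower. With the ADREX ozone and SHAM ozone libraries fitted alone Hsp90ab1 and Dnajc15 passed, while none of the 4 did without a filter or on leaving out the 3 libraries with most neural transcripts. Those 3 were ADREX ozone 81 and 82 and SHAM ozone 18. Their loss left ADREX ozone 83 and 84 against SHAM ozone 17, 19 and 20, and the part of the smaller groups was not tested.

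The 7 members listed as endoplasmic reticulum chaperones were Hsp90b1 (Grp94), Hspa13, Dnajb11, Dnajc1, Dnajc3, Dnajc10 and Dnajc25. These were called in none of the 5 comparisons by limma, edgeR or DESeq2. The list does not cover every member of that compartment. Dnajb12, in its membrane but facing the cytosol, was not in the list, and DESeq2 called it for ozone in SHAM livers (background 4.22%). With limma 0 of the 7 listed had an unadjusted p under 0.05 in any comparison, against 12.9% to 31.2% of all genes tested. The share of all genes that limma called ran from 0.109% to 12.5%. Hsp90b1 averaged 6084 ± 2894 in ADREX ozone, 5912 ± 980.5 in ADREX air, 7198 ± 1009 in SHAM ozone and 7719 ± 1377 in SHAM air livers, and its groups overlapped. Dnajc3, which restrains the kinase Perk, averaged 2143 ± 459.8 in ADREX ozone, 2253 ± 547 in ADREX air, 2237 ± 220.0 in SHAM ozone and 2045 ± 328 in SHAM air livers. The spread within groups exceeded the differences between their means. Dnajb11 averaged 890.1 ± 628 in ADREX ozone, 687 ± 221 in ADREX air, 801 ± 43.6 in SHAM ozone and 876 ± 187 in SHAM air livers. The promoters of Hsp90b1 and Dnajc3 (2 of 43 members, 4.65%) held a match to the endoplasmic reticulum stress element (CCAAT and CCACG with 9 bases between them, on either strand), which was in 0.0765% of all promoters.

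For ozone against air in SHAM livers, the cytosolic J protein Dnajb4 had the smallest p of any member. It had 610.0, 631, 720.4 and 591 normalized counts in SHAM ozone and 389.9, 281, 428 and 431 in SHAM air livers, without overlap, and 467, 566, 488 and 318 in ADREX ozone and 444, 439.5, 399 and 597 in ADREX air livers, which overlapped. It averaged 638 ± 57.1 in SHAM ozone and 382 ± 70.1 in SHAM air livers (log2 change 0.75 ± 0.19, adjusted p = 0.0588). The adjusted p was 0.0319 on leaving out ADREX ozone 84, 0.0486 for ADREX ozone 82 and 0.0385 for SHAM air 3, and it passed with TMM scaling (0.0434), edgeR (0.0488) and DESeq2 (0.00539).

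Dnajb12, a J protein of the endoplasmic reticulum membrane that faces the cytosol, averaged 729 ± 83.8 in SHAM ozone and 468 ± 139 in SHAM air livers (log2 change 0.68 ± 0.18, adjusted p = 0.065), also without overlap. It passed without SHAM air 1 or 3 (adjusted p = 0.0322 and 0.0337). Dnajc11, found with the cristae-forming complex of mitochondria, averaged 539.8 ± 126 in SHAM ozone and 329.9 ± 67.1 in SHAM air livers (log2 change 0.70 ± 0.21, adjusted p = 0.0984). Lower in SHAM ozone livers were Dnaja4, at 58.2 ± 10.2 against 94.8 ± 25.3 in SHAM air livers (log2 change −0.67 ± 0.22, adjusted p = 0.125), and the splicing-associated Dnajc8, at 175 ± 30.2 in SHAM ozone against 243 ± 32.1 in SHAM air livers (log2 change −0.48 ± 0.17, adjusted p = 0.168). In all, 6 members (10.9%) did not overlap between SHAM ozone and SHAM air livers, against 11.1% of all genes. The same held for 8 (14.5%) between ADREX ozone and ADREX air livers, against 9.96%.

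The difference between the ozone effects in ADREX and in SHAM livers was tested itself. No member passed with limma (background 0.109%), edgeR (0.188%) or DESeq2 (1.95%), and 12 (21.8%) had an unadjusted p under 0.05 against 12.9% of all genes. The smallest p was that of Hspa1a (log2 difference −2.53 ± 0.75, adjusted p = 0.182), followed by Dnajc8 (0.80 ± 0.25, adjusted p = 0.197), Dnajb12 (−0.82 ± 0.25), Dnajb4 (−0.80 ± 0.27) and Hspd1 (−0.58 ± 0.21). None of these differences passed.

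Another 4 members, Dnajc6, Hspa12a, Hspa4l and Dnajc27, were among those highest in the library richest in neural markers, ADREX ozone 82. This was not particular to them. Dnaja2, Dnajb2, Dnajc2, Dnajc7, Dnajc9, Dnajc15, Dnajc19 and Dnajc24 were also highest in that library. Dnajc6 and Hspa12a were picked after their values were seen, while Hspa4l and Dnajc27 were among the 5 smallest p-values for ozone in ADREX livers. Dnajc6 encodes auxilin, which strips clathrin from vesicles and is enriched in neurons. It had 479, 777, 239 and 176 normalized counts in ADREX ozone, 78.9, 50.8, 28.3 and 124 in ADREX air, 83, 263, 99 and 10.3 in SHAM ozone and 1.49, 0, 164 and 12 in SHAM air livers. Its highest value, in ADREX ozone 82, fell in the library with the largest neural sum (4422 RPM), and SHAM air 2, with the smallest (23.5 RPM), had no read of it, which allows up to 0.239 RPM. Hspa12a, a distant Hsp70, had 311, 505, 140.4 and 117 in ADREX ozone, 68.3, 45.5, 28.3 and 97.8 in ADREX air, 27.2, 192, 64.2 and 13.3 in SHAM ozone and 4.46, 8.41, 131 and 22.1 in SHAM air livers. Here too ADREX ozone 82 was highest, and SHAM air 1 and 2 were lowest. ADREX against SHAM under ozone did not pass for Hspa12a (log2 change 2.25 ± 0.88, adjusted p = 0.0983), nor with the neural marker score as a covariate (log2 change 0.73 ± 0.29, adjusted p = 0.126). The adjusted p was 0.0383 on leaving out SHAM ozone 18 and 0.0425 for SHAM air 3.

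Hspa4l, of the Hsp110 family, averaged 149 ± 85 in ADREX ozone and 37.3 ± 14.3 in ADREX air livers without overlap (log2 change 1.87 ± 0.56, adjusted p = 0.143). With the neural score in the model its log2 change was 1.12 (adjusted p = 0.134). Dnajc27 averaged 209 ± 125 in ADREX ozone and 64.1 ± 16.1 in ADREX air livers (log2 change 1.55 ± 0.48, adjusted p = 0.15), and 0.84 with that covariate. The part of neural transcripts in these differences was otherwise not tested. In the comparison of ADREX with SHAM under ozone the 4 called members did not pass with the covariate (adjusted p 0.069 for Hsp90ab1, 0.132 for Dnajc15, 0.141 for Hspd1 and 0.129 for Dnajc12).

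**Figure D4:**
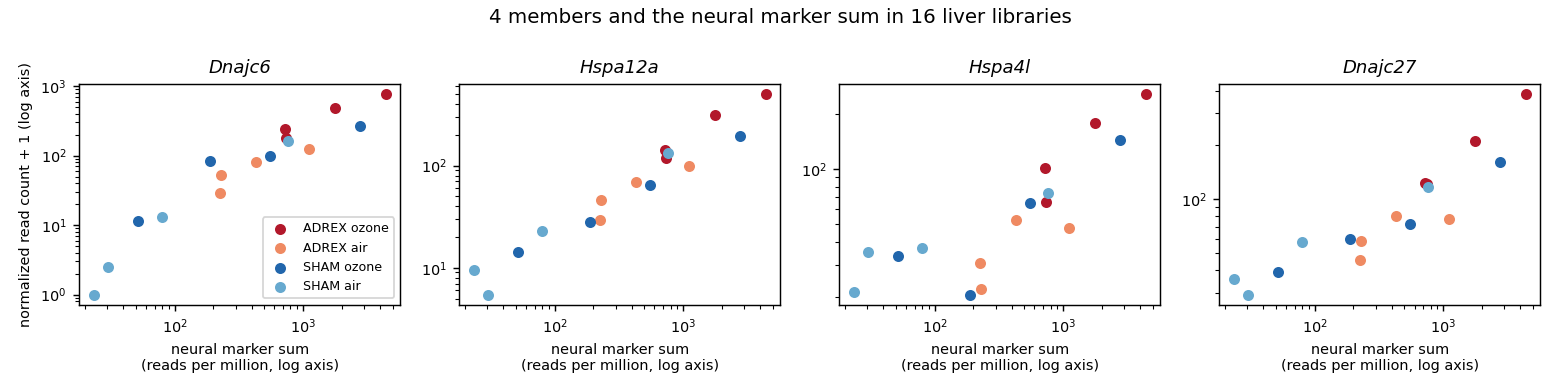
Normalized counts plus 1 of Dnajc6, Hspa12a, Hspa4l and Dnajc27 (log axis) against the sum of 22 markers of neurons and oligodendrocytes in RPM (log axis), 1 point a library, coloured by group. ADREX ozone 82, with the largest marker sum, is the highest library in each panel.

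Among genes that work with these chaperones without being members, Bag3 fell in ADREX livers under ozone and, in fewer settings, in air. Bag3, an Hsp70 exchange factor and a known Hsf1 target, had 188, 149.8, 161 and 222 normalized counts in ADREX ozone and 393, 368, 337 and 457 in SHAM ozone livers. It fell to 180.1 ± 31.9 in ADREX ozone, against 389 ± 50.9 in SHAM ozone livers, lower in 4 of 4 libraries (log2 change −1.11 ± 0.18, adjusted p = 0.00131), and passed in all 26 settings run (adjusted p 3.88e-07 to 0.0313). In air Bag3 fell to 204 ± 26.3 in ADREX, against 330.0 ± 68 in SHAM livers (log2 change −0.67 ± 0.18, adjusted p = 0.0479), a call that held in 8 of 26 settings. The adjusted p was between 0.0544 and 0.161 when any 1 of 13 libraries was left out (ADREX ozone 81 and 83, ADREX air 65, 66, 67 and 68, SHAM ozone 17, 18, 19 and 20 and SHAM air 1, 2 and 4). It was 0.0672 without a filter, 0.0501 with edgeR, 0.122 with the 2 groups alone, 0.204 with the neural covariate and 0.072 when the 3 libraries with most neural transcripts were left out. Of 17 tested Hsf1 targets, 9 of them members, Bag3 was the only one called by limma in air (background 3.53%). There edgeR called 0 (2.96%) and DESeq2 called Bag3, Hsp90aa1 and Hsp90ab1 (6.52%). The median log2 change of the list was 0.31. Under ozone Hsp90ab1 rose and Hspd1 and Bag3 fell with limma (background 12.5%), and the list's median was 0.12.

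Of 15 Hsp70 exchange factors and ubiquitin partners, 3 rose and 1 (Bag3) fell in ADREX against SHAM livers under ozone with limma. In this comparison limma called 12.5% of all genes tested. The list's median log2 change was −0.10. Of these 4, edgeR called Bag3 and Stub1, and DESeq2 also called Bag1. Stub1, the ubiquitin ligase CHIP that tags clients of Hsp70, rose to 338 ± 47.7 in ADREX ozone, against 189 ± 26.3 in SHAM ozone livers (log2 change 0.83 ± 0.17, adjusted p = 0.00633), and passed in 25 of 26 settings, all but the one without the 3 libraries richest in neural markers (0.0653). Bag1 rose to 282 ± 43.5 in ADREX ozone, against 192 ± 11.8 in SHAM ozone livers (log2 change 0.54 ± 0.15, adjusted p = 0.0278), with an adjusted p between 0.0542 and 0.0746 when any 1 of 6 libraries was left out (ADREX ozone 83 and 84 and SHAM ozone 17, 18, 19 and 20). It did not pass with edgeR (0.0752), TMM scaling (0.0745), the 2 groups alone (0.0537) or leaving out the 3 libraries with most neural transcripts (0.0591). Hscb, a mitochondrial J protein for iron-sulfur clusters, rose to 47.4 ± 6.83 in ADREX ozone, against 24.9 ± 10.8 in SHAM ozone livers (log2 change 1.0 ± 0.31, adjusted p = 0.0438), with an adjusted p between 0.0512 and 0.114 when any 1 of 11 libraries was left out (ADREX ozone 81, 82, 83 and 84, ADREX air 65, 66 and 68, SHAM ozone 17, 19 and 20 and SHAM air 2). It passed in only 7 of 25 settings, and not with edgeR (0.082), DESeq2 (0.0631) or TMM scaling (0.0632). Among 14 subunits of the CCT chaperonin and prefoldin, Cct4 rose to 1955 ± 493 in ADREX ozone, against 1185 ± 121 in SHAM ozone livers (log2 change 0.69 ± 0.18, adjusted p = 0.0195, 0.0602 without ADREX ozone 82 and 0.105 on leaving out the 3 with most neural transcripts), and the list's median was 0.47 against 0.11 for all genes.

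Among 23 co-chaperones and Hsp90 cofactors only the hormone-responsive Fkbp5 passed with limma, in comparisons where 1.58% and 12.5% of all genes were called. It rose to 2104 ± 693 in SHAM ozone, against 481 ± 88.8 in SHAM air livers (log2 change 2.08 ± 0.30, adjusted p = 0.00287). It fell to 365 ± 137 in ADREX ozone, against 2104 ± 693 in SHAM ozone livers (log2 change −2.56 ± 0.30, adjusted p = 0.000211). With edgeR, Fkbp5 alone was called, in the same comparisons (background 1.38% and 12.4%). DESeq2 called it there too, and for the difference in ozone effect (1.95%). DESeq2 also called Cdc37l1, Nr3c1 and Stip1 for ozone in SHAM (4.22%) and Chordc1 for ozone in ADREX livers (4.46%). Of 4 tested genes among the heat shock factors and their binding protein, 0 passed in any of the 5 comparisons with limma, edgeR or DESeq2. Of them 1, Hsbp1, had an unadjusted p under 0.05 for ADREX under ozone (31.2% of all genes) and for the difference in ozone effect (12.9%).

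The members nearest the required mean were Hspa1a at 32.2 and Hspbap1 at 37.0 normalized counts, and the nearest symbols below it were Dnajc17 at 13.9 and Hspa8 at 12.1. Hspa8 encodes the abundant constitutive Hsp70, yet held only 0 to 29 reads a library, of which 3 reads correspond to 0.213 to 0.358 RPM. RefSeq names 33 pseudogenes of Hspa8, and their part in its level was not tested. Hspe1, the partner of Hspd1, was not analysed here.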

How the data were processed

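Liver mRNA was selected and sequenced on a NextSeq with a Wafergen PrepX kit, per the labels' protocols. Partek, DESeq2 and the rat build rn6 were used, per the submitters' processing notes; for version, aligner, counting rule and annotation none is given in the sources used here. Values in the deposited table are a signal that, judged from the values, the authors made by dividing whole read counts by 1 size factor per library; they are called normalized counts here. Dividing each column by its step gave whole reads for 100% of values within 0.01. Totals were 8372891 to 14096246 reads per library, and a count of 0 allows up to 3 reads; such limits cover counting error only, since the labels name no molecular identifiers and reads without them are not independent molecules.

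Values were tested as log2(value + 1) with limma-trend 3.58.1 (R 4.3.3; two-sided) on 12788 genes with a mean of at least 14.7, in 1 model of 4 group means over 16 libraries (12 residual degrees of freedom), with Benjamini-Hochberg adjustment over all genes tested. Adjusted p-values are limma's unless a tool is named. Errors are SE for log2 changes and SD (n = 4) for means. There were 5 comparisons: ozone against air within SHAM, the same within ADREX, the difference of both, ADREX against SHAM breathing air, and the same breathing ozone. On the recovered reads, edgeR 4.0.16 called 176, 49, 24, 378 and 1584 genes in that order and DESeq2 1.42.0 called 540, 570, 249, 834 and 2194, beside limma's 202, 16, 14, 451 and 1600. Simulated counts with known changes were used to test the fits.

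Named members are those called, up to the 5 smallest p-values in each comparison, main members of each role, and those nearest the required mean. Others are said to be chosen after their values were seen. Members and lists were chosen with earlier results of these data known. All 16 columns were used. RefSeq promoters were matched by symbol to build GRCr8, which differs from the table's build, so coordinates belong to the sequences only. Of 55 member symbols, 54 were current in RefSeq. The exception was Hspb11, which was grouped with the small heat shock proteins by symbol only. The labels give no batch and no strand setting, so overlapping genes cannot be told apart.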

Additional observations from a re-analysis of the deposited data

Results flagged for a closer look

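Among 104 sets of 4 libraries (26 named members in 4 groups), 4 had a lowest library far from the other 3. In these, its gap to the nearest took a larger share of the group's range than Dixon's critical value allows. Gap and range were taken on the log2(value + 1) scale, not on the normalized counts printed here. Chance gives about 1 in 20 such sets. In ADREX air library 67, Dnaja1 stood at 3095 normalized counts, with a gap of 0.885 of the range, and Hsph1 at 1023, with a gap of 0.863. In SHAM ozone library 17, Dnajc15 stood at 257 (gap 0.892). In ADREX air library 65, Hspbap1 stood at 28.2 (gap 0.946).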

How the results depend on the processing

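Over 1431 combinations of a result and a setting, 1277 were labelled the same, 63 lost and 49 gained a call, 42 moved and 0 reversed. For a single gene, the same means an unchanged direction and side of the threshold, and only single genes could be labelled reversed. For a median it means a shift under 0.113, and for a count of members an equal count or one within a fixed ratio. The medians for ozone in ADREX and for ADREX under ozone changed sign in some leave-outs. Of 55 members, limma called 0 for ozone in SHAM, and the count was 1 with a floor of 73.5, with TMM scaling, with edgeR and with the neural covariate, 3 with DESeq2, and 0 to 5 when 1 library was left out. For ozone in ADREX the count of 0 became 1 with edgeR, 6 with DESeq2, and 0 to 2 with a library left out. For ADREX in air the count of 1 became 4 with DESeq2 and 0 without a filter, with the 2 groups alone, with the neural covariate or without the 3 libraries richest in neural markers, and 0 to 8 with a library left out. For ADREX under ozone the count of 4 became 8 with DESeq2, 2 with the 2 groups alone, 1 with the covariate, 0 without a filter or without those 3 libraries, and 0 to 5 with a library left out. The difference in ozone effect stayed at 0 in every setting run, with 12 members at an unadjusted p under 0.05 in limma. The members' median log2 change ranged, with a library left out, over 0.0707 to 0.143 for ozone in SHAM, −0.0529 to 0.0476 for ozone in ADREX, −0.180 to −0.0668 for the difference, 0.0985 to 0.227 for ADREX in air and −0.0840 to 0.102 for ADREX under ozone. The causes were not tested. No paired analysis was possible because the replicate numbers differ between all groups. Depth limits Hspa1a, with 6 to 93 reads a library, and Dnajc6 and Hspa12a, with 0 to 7 reads in SHAM air libraries 1 and 2.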
